A study of Mus musculus with 2 samples.

Results

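The Prader-Willi and Angelman imprinted domain of mouse chromosome 7 was examined through 7 of its genes, Ndn, Magel2, Mkrn3, Peg12, Snrpn, Ube3a and Atp10a. They were found by searching the gene symbols of the deposited expression table, whatever the status of the entry. Of the 29126 entries in the table, 5 carried one of these symbols, 1 each for Atp10a, Ube3a, Snrpn, Ndn and Magel2. Snrpn shares its entry with Snurf, and no entry carried the symbol Mkrn3 or Peg12, which are not analysed further here. Messenger RNA had been sequenced from 1 library of Dnmt1+/+ and 1 library of Dnmt1-/- mouse embryonic fibroblasts (MEFs), connective tissue cells grown from embryos. In the Dnmt1-/- cells both copies of Dnmt1, the gene of the maintenance DNA methyltransferase, carry an allele of reduced function, and the cells of both genotypes are also null for Trp53, the gene of p53. The strain is recorded as unknown, and neither the embryo age nor whether a line is 1 clone is given in the sources used here. As each genotype has 1 library, there are no replicates and no p-value is given, and every value describes these 2 libraries. RNA was measured over all cells of a culture, so fewer cells that express a gene and less RNA per cell cannot be told apart.

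An imprinted gene is expressed from only the maternal or only the paternal copy. In this domain Snrpn, Ndn, Magel2, Mkrn3 and Peg12 are known as paternally expressed genes. The imprinting centre lies at the first exon of Snurf and Snrpn and carries DNA methylation on the maternal chromosome, where the genes are silent. A long transcript that starts there runs through clusters of small nucleolar RNAs and, in neurons, antisense to Ube3a, whose paternal copy is then silent. Outside neurons Ube3a is expressed from both copies. Imprinting of Atp10a has been described for some tissues and strains only.

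The promoters of the genes on which the results turn are shown so that the density of CpG, the dinucleotide that Dnmt1 keeps methylated, can be seen. Each runs from 250 bases before to 50 bases after a RefSeq transcription start, 5′ to 3′ on the strand of the gene, with each CpG in capitals. All 10 RefSeq promoters listed for the 7 genes matched chromosome 7 of NCBI37 (mm9) exactly once, and the coordinates are in that build. The Snrpn promoter shown, chr7:67150036-67150335 on the minus strand, is the one listed for Snurf as well, beside the imprinting centre. The Ndn promoter is chr7:69492913-69493212, that of Magel2 chr7:69521615-69521914 and that of Ube3a chr7:66483870-66484169, all on the plus strand.
Snrpn: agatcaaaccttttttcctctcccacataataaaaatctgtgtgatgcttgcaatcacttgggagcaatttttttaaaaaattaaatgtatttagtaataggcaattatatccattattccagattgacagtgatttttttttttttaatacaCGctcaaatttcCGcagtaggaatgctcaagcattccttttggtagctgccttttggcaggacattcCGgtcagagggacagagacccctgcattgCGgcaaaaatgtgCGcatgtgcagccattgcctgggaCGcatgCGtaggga
Ndn: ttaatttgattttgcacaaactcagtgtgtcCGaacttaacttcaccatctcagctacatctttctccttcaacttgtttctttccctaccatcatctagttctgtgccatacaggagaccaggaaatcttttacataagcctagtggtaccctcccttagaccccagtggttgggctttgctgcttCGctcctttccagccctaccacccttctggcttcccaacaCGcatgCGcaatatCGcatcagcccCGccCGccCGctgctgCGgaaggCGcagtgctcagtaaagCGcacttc
Magel2: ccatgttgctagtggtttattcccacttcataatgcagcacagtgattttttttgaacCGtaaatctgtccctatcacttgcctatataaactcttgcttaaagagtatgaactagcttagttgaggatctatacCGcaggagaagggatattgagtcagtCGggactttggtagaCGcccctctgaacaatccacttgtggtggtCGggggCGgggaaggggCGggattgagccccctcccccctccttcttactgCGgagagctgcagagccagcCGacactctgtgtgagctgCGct
Ube3a: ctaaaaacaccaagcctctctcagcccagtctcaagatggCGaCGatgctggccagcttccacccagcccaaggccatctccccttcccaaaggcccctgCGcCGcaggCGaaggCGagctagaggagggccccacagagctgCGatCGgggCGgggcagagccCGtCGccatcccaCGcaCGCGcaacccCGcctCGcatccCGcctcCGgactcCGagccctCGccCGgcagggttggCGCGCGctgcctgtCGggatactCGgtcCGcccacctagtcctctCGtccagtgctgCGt

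These promoters hold 7 CpGs for Snrpn, 11 for Ndn, 10 for Magel2 and 29 for Ube3a, where the median of 32851 RefSeq promoters of 300 bases is 7. Ube3a is thus the most CpG-rich of the 4, and 12.9% of all promoters have as many CpGs or more. The 3 other Snrpn promoters, which lie upstream at chr7:67192815-67193114, chr7:67285062-67285361 and chr7:67595014-67595313, hold 4, 3 and 2 CpGs. After the sequences had been seen, the letters CGCATGCG, which read the same on both strands and form the core of the site of the activator NRF1, were searched. They were present in all 4 Snrpn promoters and in that of Ndn, and in none of the other member promoters, while 1.87% of all 32851 promoters hold them. As the letters were picked from these same promoters, that share cannot measure how unusual their presence is. The 3 upstream Snrpn promoters also share long stretches of sequence and are not separate matches. In the sequences shown they appear as CGcatgCG near the 3′ end of the Snrpn and the Ndn promoters. A match of letters does not show binding.

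Expression was deposited as RPKM, which divides the reads of a transcript by its length and by the mapped total. The file gives no read numbers, but the low RPKM values of single-transcript loci fell on multiples of a fixed step. On an effective length of 1 kb, 1 read was worth 0.0209 RPKM in Dnmt1+/+ and 0.0191 in Dnmt1-/-, a ratio of 1.09 between the libraries. The steps correspond to scaling totals that are below the mapped totals stated for the libraries, and the read numbers follow the steps and not those totals. With these steps 62.9% of 35 low values in Dnmt1+/+ and 89.7% of 58 in Dnmt1-/- lay within 0.05 of a whole read, a description only, since the steps were fitted on the same values. Read numbers given for single genes are estimates from these steps and transcript lengths, with exact 95% Poisson intervals that cover counting error only. Changes are differences of log2(RPKM + 0.1), Dnmt1-/- minus Dnmt1+/+, on which the changes of genes with low RPKM come out too small. Cuffdiff gives each entry a status, and the authors took OK to mean enough reads for quantification. Some entries listed at 0 in both libraries, such as Oca2, also carry the status OK. Entries were compared if they had status OK, a gene symbol and at least 1 RPKM in either library, and 11244 met this. Their median change was -0.14, against which single changes are to be read. The RPKM of Dnmt1 itself was 65.2 in Dnmt1+/+ and 14.5 in Dnmt1-/-. The libraries also differed in sex-linked RNA, as Xist was at 0.00648 RPKM in Dnmt1+/+ against 37.0 in Dnmt1-/-, and the Y-linked Ddx3y was at 13.9 RPKM in the first and listed at 0 in the second, so that the Dnmt1 genotype and other differences between the lines cannot be told apart.

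The paternally expressed genes of the domain went in opposite directions. Ndn was higher in Dnmt1-/- MEFs and Snrpn was lower, each by more than 20-fold in RPKM, while Magel2 was listed at 0 in both libraries. For Snrpn this is the fall of its own entry. Summed with an unnamed entry of the same locus, its change on the log2(RPKM + 0.1) scale was -1.57. Neither Ube3a nor Atp10a passed the 2-fold threshold on the log2(RPKM + 0.1) scale, although Ube3a lay at its edge. Of the 5 entries 4 could be compared, of which 1 rose and 1 fell past 2-fold and 2 stayed within it. Over all entries compared 19.4% passed 2-fold, 8.47% upwards and 10.9% downwards, and the 4 entries are too few to set a share against these. Their median change was -0.51, which describes none of them well, as it lies between Ube3a and Atp10a.

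Ndn encodes necdin, a MAGE family protein that restrains growth and promotes differentiation of neurons and muscle. Its single exon lies on the plus strand of chromosome 7, at chr7:69493154-69494813 in the table. The RPKM of Ndn was 0.423 in Dnmt1+/+ and 11.4 in Dnmt1-/- MEFs. These values correspond to about 29 and 866 reads, with intervals of 0.281 to 0.602 RPKM and 10.7 to 12.2 RPKM. Ndn was therefore detected in both libraries, and the intervals do not overlap. In RPKM the difference was 27.0-fold, and the log2 of the ratio of reads, after that ratio was divided by the 1.09-fold ratio of the steps, was 4.77 with an interval of 4.24 to 5.36. On the log2(RPKM + 0.1) scale the change was 4.46, at the 98.9 percentile of all entries compared, where 125 entries including Ndn rose at least as much. No stretch of 50 bases, the read length, in the Ndn transcript occurred in a protein-coding transcript of another gene.

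Magel2, an intronless MAGE gene whose product acts with a ubiquitin ligase in endosomal protein sorting, lies at chr7:69521865-69526526, downstream of Ndn on the same strand. It was listed at 0 in both libraries, with the status NOTEST. On its transcript of 4662 bases a count of 3 reads, the limit that a count of 0 allows, would have given 0.0141 RPKM in Dnmt1+/+ and 0.0129 in Dnmt1-/-. In the Dnmt1-/- library Ndn thus stood at 11.4 RPKM and its neighbour below that limit. The 2 promoters differ little in CpG number, and of the 2 only that of Ndn holds CGCATGCG. The Snrpn promoters hold these letters as well, and Snrpn was lower in Dnmt1-/-. The part of either feature in these values was not tested.

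Snrpn encodes SmN, a tissue-restricted form of the spliceosomal SmB protein, and Snurf is a small reading frame upstream on the same transcript. Their joint entry spans chr7:67127388-67285105, on the minus strand in the annotation. The Dnmt1+/+ library gave 11.1 RPKM and the Dnmt1-/- library 0.239. On the longer annotated transcript, of 2076 bases, this corresponds to about 990 and 23 reads, with intervals of 10.4 to 11.8 RPKM and 0.149 to 0.353 RPKM. The value of the entry in Dnmt1-/- was therefore above 0 but 46.4-fold lower in RPKM. Whether its reads there came from Snrpn RNA cannot be told, as another entry shares the locus. The log2 ratio of the reads, corrected in the same way, was -5.56 with an interval of -6.22 to -4.96. On the log2(RPKM + 0.1) scale the change was -5.04, and 49 of the 11244 entries compared, Snrpn among them, fell at least as far. An entry without a symbol covers the same locus, at 8.61 RPKM in Dnmt1+/+ and 6.33 in Dnmt1-/-. Its strand and exons are not in the table, and how reads were divided between the entries is not known. If both entries are summed, the change of the locus is -1.57 in place of -5.04, still more than 2-fold lower.

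**Figure D1:**
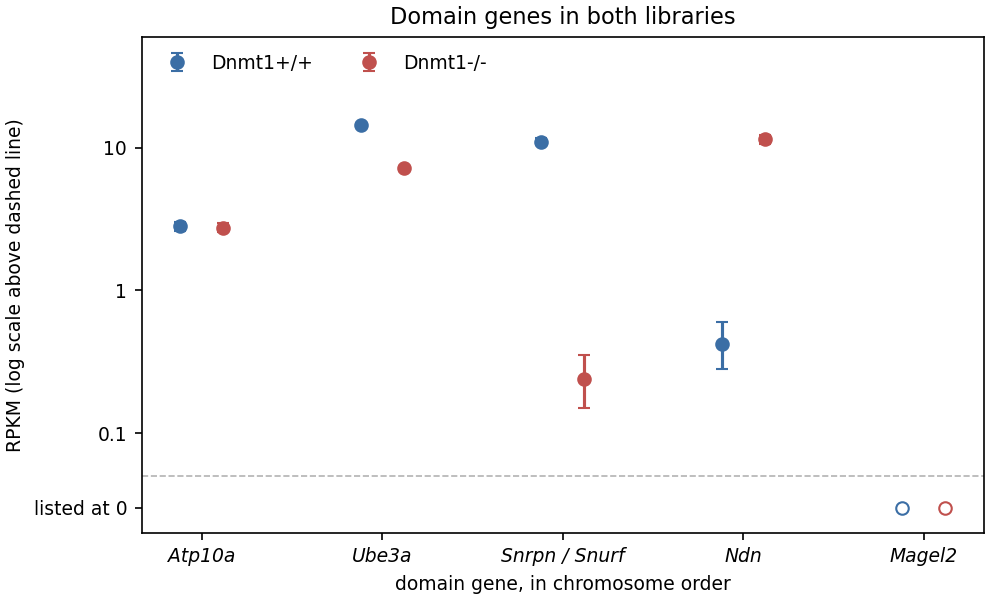
RPKM of the 5 domain entries (vertical axis, log scale above the dashed line) in the Dnmt1+/+ (blue) and Dnmt1-/- (red) libraries, in chromosome order. Points are single libraries, bars are exact 95% Poisson intervals of the estimated reads, and open circles are values listed at 0. Snrpn falls from 11.1 to 0.239 RPKM and Ndn rises from 0.423 to 11.4, while Atp10a stays at 2.81 and 2.76. The unnamed entry that shares the Snrpn locus is not drawn.

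Ube3a encodes the E6-AP ubiquitin ligase, the gene whose maternal loss causes Angelman syndrome. It lies on the plus strand and its entry spans chr7:66484110-66562709. The RPKM of Ube3a was 14.4 in Dnmt1+/+ and 7.17 in Dnmt1-/- MEFs. These correspond to about 3371 and 1835 reads on the longer transcript, of 5097 bases, with intervals of 13.9 to 14.9 and 6.85 to 7.51 RPKM. Counting error therefore does not span the difference, but the change on the log2(RPKM + 0.1) scale stayed just within 2-fold, at -0.996. It was at the 11.0 percentile of all entries compared, close to the 10.9% of entries that passed 2-fold downwards. Relative to the median change of all entries it was -0.86, and with a pseudocount of 0.01 it was -1.01 and counted as lower.

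Atp10a, which encodes a phospholipid-transporting ATPase (flippase), lies at chr7:65913572-66084796 on the plus strand. At 2.81 RPKM in Dnmt1+/+ and 2.76 in Dnmt1-/- MEFs, or about 708 and 760 reads, it had the smallest change of the 4 entries compared. The intervals, 2.61 to 3.03 and 2.57 to 2.96 RPKM, overlap. Its log2 ratio of the reads, corrected for the ratio of the steps, was -0.03 with an interval of -0.18 to 0.12, so that a change beyond these bounds is outside counting error for these libraries. The order of the genes by RPKM was Ube3a, Snrpn, Atp10a, Ndn and Magel2 in Dnmt1+/+ and Ndn, Ube3a, Atp10a, Snrpn and Magel2 in Dnmt1-/-, and no neighbours in either order had overlapping intervals.

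**Figure D2:**
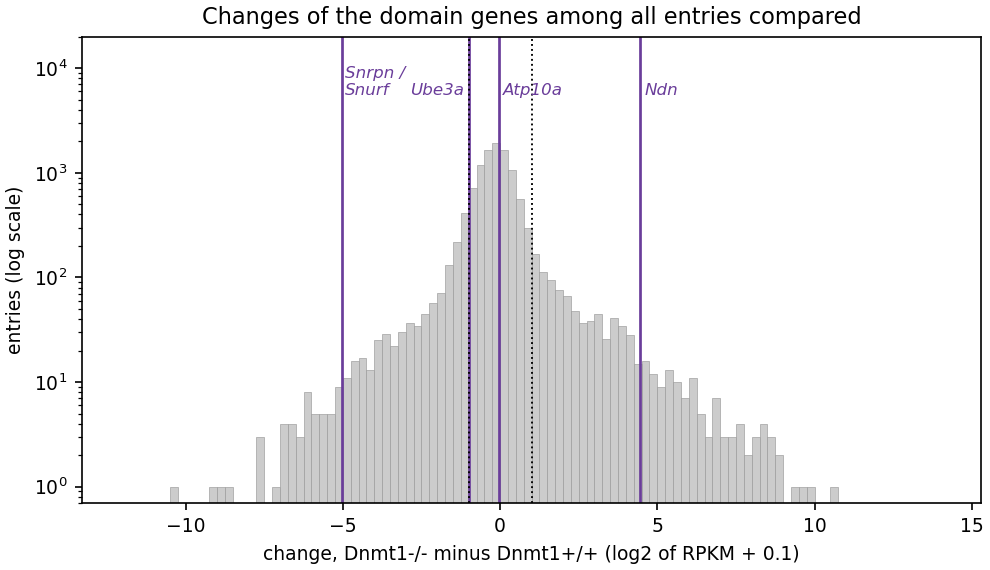
Histogram of the changes of the 11244 entries compared (horizontal axis, log2 of RPKM + 0.1, Dnmt1-/- minus Dnmt1+/+; vertical axis, entries on a log scale), with the 4 domain entries as purple lines and the 2-fold thresholds dotted. Snrpn at -5.04 and Ndn at 4.46 lie in opposite tails, Ube3a at the lower threshold and Atp10a near the centre.

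Between and beside the members the table lists further RNAs of the domain. In the window from the outermost members to 1 Mb beyond them on either side (chr7:64913572-70526526) there were 45 entries, 32 with a gene symbol and 13 without, and 20 were listed at 0 in both libraries. All 10 Snord116 and Snord116l1 entries and all 9 Mir344 entries were at 0 in both. Mature small nucleolar RNAs and microRNAs are shorter than the RNAs an mRNA library is made to capture, so that a listing at 0 says little about them. Between the outermost members 15 entries reached 1 RPKM in either library, whatever their status, of which 8 were past 2-fold downwards and 2 upwards in Dnmt1-/- MEFs. The 8 include an unnamed entry of 179 bp, whose RPKM is not on the scale of the genes. Over the 19270 entries of the table that reached 1 RPKM, with or without a symbol, 30.5% were past 2-fold, 17.5% downwards and 13% upwards. The 2 upward entries of the domain are Ndn and an entry without a symbol at the locus of Ipw.

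The fall of Snrpn was accompanied by falls just downstream of it. From D7Ertd715e to the Snrpn locus there were 6 entries, all with lower values in Dnmt1-/-, and 4 of them were listed at 0 there. The limits of this stretch were set by hand and end before the Ipw locus, where values were higher. The 6 include Snrpn itself and the unnamed entry of its locus, whose change was only -0.44. A lower value by any amount is common, as 58.0% of the 11244 entries compared had a change below the -0.02 of Atp10a. The share past 2-fold downwards was 17.5% of the entries of the table that reached 1 RPKM. D7Ertd715e, a non-coding RNA at chr7:67114463-67119317, had 2.13 RPKM in Dnmt1+/+ and was listed at 0 in Dnmt1-/-. Next to it an unnamed entry of 299 bp was at 2.96 RPKM and listed at 0, and one of 604 bp, chosen after its values were seen, was at 1.26 RPKM and listed at 0. The last of these corresponds to 24.0 reads in Dnmt1+/+, so that it was at least 8.74-fold lower if 3 reads are allowed to a count of 0. Snord64, a small nucleolar RNA of 83 bp with status NOTEST, was at 0.443 RPKM and at 0. It is among the 4 entries listed at 0, and for so short an RNA such a listing says little.

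Of 12 entries of non-coding and small RNA genes of the domain 2 met the rule for comparison, D7Ertd715e and C230091D08Rik, and both fell past 2-fold. Over all entries compared 10.9% fell past 2-fold, and 2 entries are too few to set a share against this. Farther downstream the values did not continue in one direction. Ipw, a spliced non-coding RNA of the domain within chr7:66874528-66934343, had 0.850 RPKM in Dnmt1-/- against a listing at 0 in Dnmt1+/+. An unnamed entry of the same locus, also chosen after its values were seen, was at 0 and 1.03 RPKM. C230091D08Rik, which is annotated on the minus strand and lies just beyond the 3′ end of Ube3a, fell from 3.91 to 1.25 RPKM, a change of -1.57. A230073K19Rik, whose entry has the same locus as Ube3a, was at 0.0278 RPKM in Dnmt1+/+ and listed at 0 in Dnmt1-/-. The strand of neither entry at the Ube3a locus is in the table, so that sense and antisense RNA there cannot be told apart.

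On the other side of Snrpn, towards Ndn, lies a locus at chr7:68850736-69072460 that holds several entries. A230057D06Rik was at 0.273 RPKM in Dnmt1+/+ and 0.0483 in Dnmt1-/- there, and an unnamed entry went from 2.07 RPKM to a listing at 0. Another unnamed entry of the locus, at 1.73 and 0.426 RPKM, was chosen after its values were seen. A330076H08Rik, another non-coding RNA, was at 0.0955 RPKM and listed at 0. Ndn was therefore the one entry between Snrpn and Magel2 with a higher value in Dnmt1-/- than in Dnmt1+/+.

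Unnamed entries elsewhere in the window differed by unequal amounts. An entry of 782 bp at chr7:67898100-67898881, which overlaps an annotated pseudogene, was at 42.9 and 42.2 RPKM. Next to Atp10a one of 564 bp went from 18.9 to 15.7 RPKM, and, on the other side of Atp10a, those of 989 and 1130 bp went from 3.48 to 2.95 and from 2.53 to 1.72. One of 179 bp, between Atp10a and Ube3a, fell from 13.9 to 2.54 RPKM. Entries of 55 bp, at 6512 and 1786 RPKM, and of 71 bp, at 3715 and 3019 RPKM, lie beyond Magel2. These entries and that of 179 bp are shorter than the 205 bases taken off a length by the RPKM steps, and RPKM of such short entries is not on the scale of the genes.

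**Figure D3:**
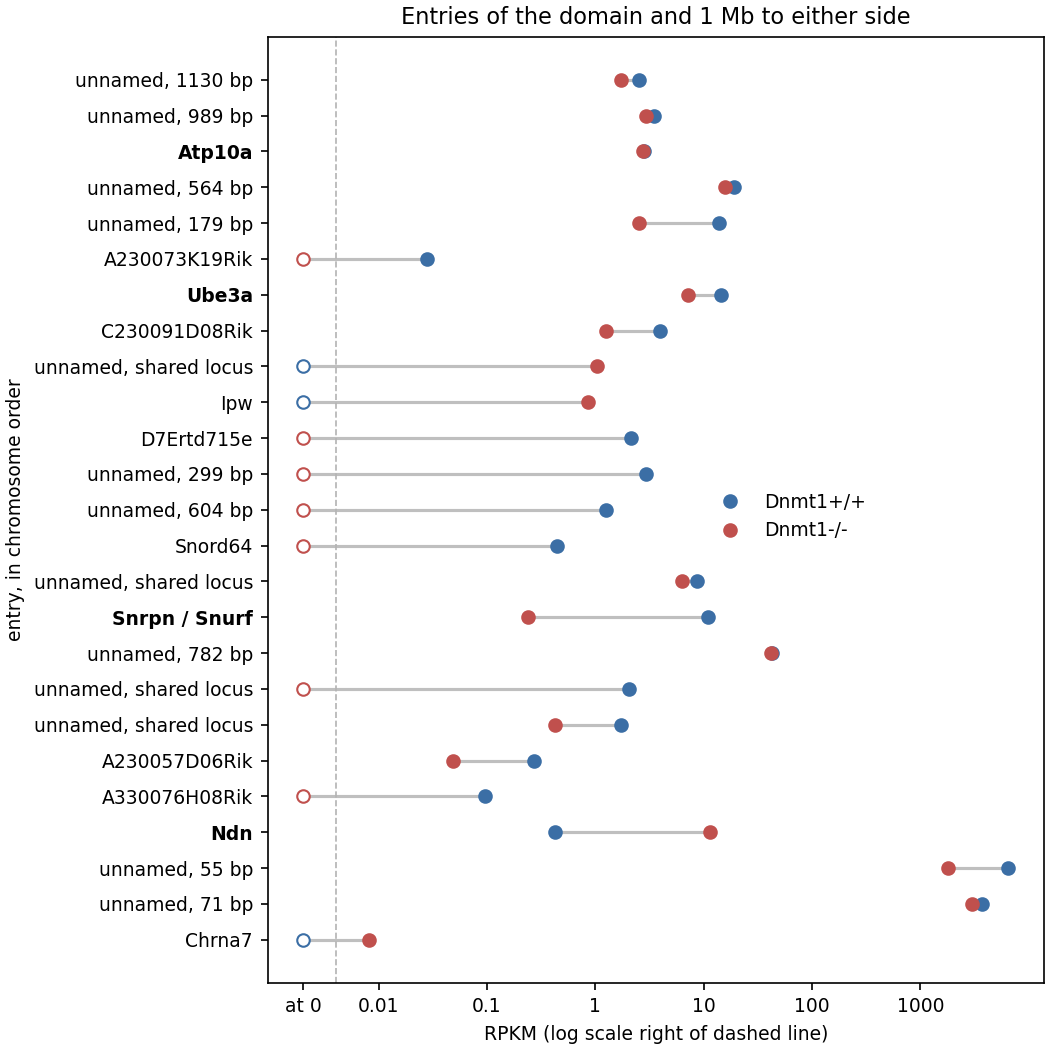
RPKM (horizontal axis, log scale right of the dashed line) of every entry of the domain and 1 Mb to either side that was above 0 in a library, in chromosome order from top to bottom with member genes in bold. Blue is Dnmt1+/+, red is Dnmt1-/- and open circles are listed at 0. From D7Ertd715e to Snrpn the red points lie to the left of the blue ones, whereas Ndn and Ipw lie to the right.

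Genes that flank the domain without being imprinted in most tissues were compared through a list of 21, of which 19 had an entry and 10 could be compared. None of the 10 was past 2-fold, against 19.4% of all entries compared, and their median change was -0.37 against -0.14 over all entries. A list of 10 is too small to set apart from all entries by this count. On the side of Atp10a, in chromosome order, Tubgcp5 had 4.23 RPKM in Dnmt1+/+ and 3.55 in Dnmt1-/-, Cyfip1 22.3 and 15.8, Nipa2, which shares a locus with it, 2.45 and 2.49, Nipa1 3.40 and 2.20, and Herc2, which encodes a ligase that binds E6-AP, 7.58 and 6.47. Beyond Magel2, Klf13 was at 4.90 and 3.32 RPKM, Mtmr10 at 4.03 and 4.93, Fan1 at 1.99 and 1.11, Tjp1 at 21.3 and 18.7, and Tarsl2 at 6.68 and 3.42. The GABA-A receptor genes Gabra5 and Gabrg3, which act in neurons, were listed at 0 in both libraries, and so were Oca2, Otud7a and Apba2. The changes of Snrpn and Ndn were thus not shared by the expressed genes on either flank.

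Relatives of the members by protein family were then counted, without the members themselves. Over all entries compared, 19.4% were past 2-fold. Of 12 spliceosomal genes with Snrpb, which encodes the SmB protein that SmN resembles, all 12 could be compared and none was past 2-fold, with a median change of 0.08. Snrpb was at 121.6 RPKM in Dnmt1+/+ and 140.4 in Dnmt1-/-, above Snrpn in both libraries, and the largest changes were those of Snrpa, at 25.9 and 17.7 RPKM, and Snrpb2, at 57.6 and 39.6. In the longest Snrpn transcript no stretch of 50 bases came within 2 mismatches of the Snrpb transcript.

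Of 12 MAGE family genes and their partners in ubiquitin ligase, retromer and SMC5/6 complexes, 2 fell past 2-fold and none rose past it, with a median change of -0.18, where 10.9% of all entries compared fell and 8.47% rose past 2-fold. Both are X-linked MAGE genes, Maged2, from 139.4 to 16.9 RPKM, and Maged1, from 338.1 to 162.0. Magee1, the other MAGE gene compared and also X-linked, went from 11.4 to 7.33 RPKM. Xist differed between the libraries as given above, and its part in these values was not tested. Trim27 and Usp7, partners of the Magel2 protein, were at 26.3 and 22.7 RPKM and at 43.7 and 60.1 RPKM, so that they were expressed where Magel2 was not found.

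Relatives of Mkrn3, Peg12 and Ube3a were listed together. Among 15 entries 14 could be compared and none passed 2-fold, against 19.4% of all entries compared, with a median change of 0.03. Smurf1, from 16.5 to 32.3 RPKM, and Itch, from 20.6 to 10.8, both HECT ubiquitin ligases like Ube3a, had the largest differences. Mkrn1 had 12.3 RPKM in Dnmt1+/+ and 11.8 in Dnmt1-/-, Mkrn2 12.8 and 9.64, Ube3b 16.4 and 13.0 and Ube3c 17.3 and 19.03, and Frat1 was at 0.0452 and 0.0314. Of 12 other P4 ATPase entries, flippases and their subunit, 6 could be compared and none passed 2-fold, against the same share, with a median of -0.26. Among them Atp11b went from 13.0 to 9.13 RPKM. The closest relatives of Atp10a, Atp10d at 0.287 and 0.0989 RPKM and Atp10b at 0 in both, stayed under 1 RPKM.

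A list of 15 genes that maintain or read imprints held 12 that could be compared. Of these 2 fell past 2-fold, against 10.9% of all entries compared, and none rose past it, against 8.47%, and the median change was -0.54 against -0.14. A count of 2 among 12 is too small to set the list apart from all entries. Beside Dnmt1 itself this was Arid4b, which encodes a chromatin protein implicated in the Prader-Willi imprinting centre, from 14.7 to 4.68 RPKM. Its paralog Arid4a was at 7.58 and 5.06 RPKM, and Zfp57, the zinc finger protein that guards methylated imprints, at 18.95 and 10.8. Uhrf1, the partner of Dnmt1 at replication, was at 49.2 and 55.1 RPKM. Setdb1 was listed at 0 in both libraries with the status FAIL, which is a failed estimate.

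**Figure D4:**
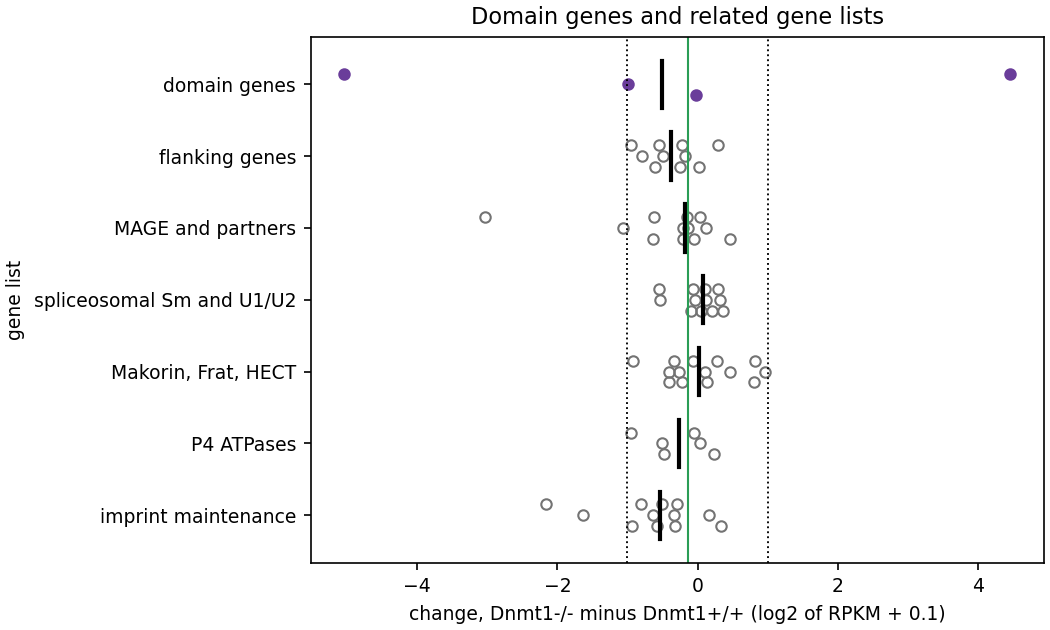
Changes of the entries compared (horizontal axis, log2 of RPKM + 0.1, Dnmt1-/- minus Dnmt1+/+) in the domain and in 6 related gene lists, 1 point per entry, with list medians as black bars, the median of all entries in green and the 2-fold thresholds dotted. Herc2 is in the list of flanking genes and in that of the HECT ligases. Domain genes reach -5.04 and 4.46, whereas 2 MAGE genes, Dnmt1 and Arid4b are the only points of the other lists beyond 2-fold.

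As several domain genes are best known from neurons, marker genes were checked for the cultures. All 10 fibroblast markers reached 1 RPKM, and the most abundant in Dnmt1+/+, chosen after their values were seen, were Vim, at 2269 RPKM against 1873 in Dnmt1-/-, and Col1a1, at 1448 against 898. The sum of the fibroblast markers was 6329 and 5005 RPKM, where 2 markers rose and 3 fell past 2-fold. Over all entries compared 8.47% rose and 10.9% fell past 2-fold. S100a4, from 290 to 1262 RPKM, and Thy1, from 4.84 to 0.129, moved most, and their part in the change of the domain genes was not tested. Of 10 neuronal marker entries 2 reached 1 RPKM, Tubb3 at 16.9 and 12.9 RPKM and Stmn2 at 2.19 and 0.0108, and their sum was 19.3 and 13.0. Rbfox3, Snap25, Dcx and Elavl4, which define neurons, were listed at 0 in both libraries. None of 6 pluripotent and germ cell markers reached 1 RPKM, with sums of 0.504 in Dnmt1+/+ and 0.270 in Dnmt1-/-.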

How the data were processed

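Strand-specific mRNA-seq reads of 50 bp had been aligned by the authors to mm9 (TopHat) and built into transcripts (Cufflinks), and the deposited RPKM values, 1 column per genotype with a status per entry, came from Cuffdiff. Versions, and whether strand was used to divide reads between overlapping entries, are not given in the sources used here. Read numbers were estimated from the steps of low RPKM values of unnamed entries alone at their locus and over 600 bp, with steps searched from 0.015 to 0.03 and 205 bases taken off each length by the fit, and transcript lengths from the NCBI37 GENCODE annotation. The fit was tested on simulated data. Changes used log2(RPKM + 0.1) and a 2-fold threshold. With 1 library per genotype no test was made. The members and lists of genes were chosen with earlier results of these data known. Named were all members, flanking genes at 1 RPKM or more, up to 10 unnamed entries of the window by RPKM, and in each list the 2 largest changes and paralogs of members, apart from some genes that are not reported here. Snhg11, listed with the non-coding genes, is not in the window and was left out. Alternatives were pseudocounts of 1 and 0.01, other filters on RPKM or status, subtraction of the median, a 1.5-fold threshold and, chosen after seeing the data, the summed Snrpn locus. Python 3.11.15, numpy 2.4.6, pandas 2.3.3, scipy 1.17.1 and matplotlib 3.10.9 were used.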

Additional observations from a re-analysis of the deposited data

How the results depend on the processing

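The number of member entries more than 2-fold higher stayed at 1 under every alternative run. The number more than 2-fold lower was 2 with a pseudocount of 0.01 and 2 with a 1.5-fold threshold, in both cases through Ube3a, and 1 otherwise. The median change of the members, -0.51, was -0.47 with a pseudocount of 1 and -0.37 after the median of all entries was subtracted. With a pseudocount of 1 the change of Ndn was lowest, at 3.13, and that of the Snrpn entry alone weakest, at -3.28. For the summed Snrpn locus, at the main pseudocount of 0.1, the change was -1.57. Atp10a moved from -0.02 to 0.12 after the subtraction. The share of all entries higher, 8.47%, was 6.96% with a pseudocount of 1, 9.92% without the filter on low RPKM, 7.43% with a mean RPKM of at least 1, 9.71% after the subtraction and 14.1% at 1.5-fold. The share lower, 10.9%, was 7.12% with a pseudocount of 1, 9.89% with a mean RPKM of at least 1, 8.58% after the subtraction and 23.7% at 1.5-fold. No paired analysis was possible because there is 1 library per genotype, and no library could be left out. Depth limits Magel2, which cannot be told apart from absent below about 0.0141 RPKM, and the lower values of Ndn and Snrpn, which rest on about 29 and 23 reads.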

Other observations

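Imprinted genes outside the domain were counted by the parental copy they are known to be expressed from. A gene can have more than 1 entry, and entries are counted. Whether each gene is imprinted in MEFs was not tested. Of 16 entries of paternally expressed genes compared, 1 rose and 6 fell past 2-fold in Dnmt1-/- MEFs, with a median change of -0.12, where 8.47% of all entries compared rose and 10.9% fell past 2-fold with a median of -0.14. Peg3 is among the falls with more than 1 entry of the same locus. The largest changes were falls, of Slc38a4 from 58.1 to 0.195 RPKM and of Igf2 from 18.5 to 0.0544. Of 13 entries of maternally expressed genes, 4 rose and 4 fell past 2-fold, with a median of 0.24, against the same shares. Here Grb10 fell from 102.7 to 0.0907 RPKM and H19 went from a listing at 0 to 24.4 RPKM.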
